A study of Mus musculus with 8 samples.

Results

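Aminoacyl-tRNA synthetases are the enzymes that attach each amino acid to its tRNA, the first step of decoding an mRNA. In animal cells most amino acids have a pair of such enzymes, one for the cytosol and one for the mitochondrial matrix, both encoded in the nucleus and made on cytosolic ribosomes. The transcripts of 37 synthetase genes were compared between hearts with and without the RNA methyltransferase METTL3. They were the protein-coding genes, of 23045 genes in the table, whose symbol is a 1-letter amino acid code followed by "ars" and at most 1 digit, plus Eprs, Farsa, Farsb and Qars. By their known location, 18 encode cytosolic enzymes, 17 encode mitochondrial enzymes, and Gars and Kars each encode both forms. Symbols are those of the table, which uses older names such as Aars for Aars1 and Vars for Vars1. The rule does not match Tarsl2, now Tars3, a further cytosolic threonyl-tRNA synthetase. All 37 genes passed the filter on low values, a mean of at least 1, which left 20313 genes to test.

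Total RNA of hearts was sequenced from 4 Mettl3 lox/lox mice (WT) and 4 Mettl3 lox/lox:alphaMHC-MerCreMer pos mice (Mettl3 KO). Both groups thus carried the floxed Mettl3 alleles, and only the Mettl3 KO mice carried the tamoxifen-inducible MerCreMer recombinase, which the alphaMHC promoter drives in cardiomyocytes. Per the study's methods, mice of both genotypes received tamoxifen on 7 consecutive days at an age of 10 to 16 weeks. The other cells of the heart keep Mettl3 in this model, and the recombinase without floxed alleles was not among the groups. Values are the authors' normalized read counts, rounded to whole numbers, and fold changes are differences of log2(value + 1), Mettl3 KO minus WT, tested with limma and adjusted over all genes tested.

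METTL3 is the catalytic subunit of the complex that writes N6-methyladenosine (m6A) on nuclear RNA, and m6A on an mRNA is best known for hastening its decay. Cytosolic synthetases are housekeeping enzymes, and 8 of the members here belong to the multi-synthetase complex, a large particle in which these enzymes are held together by scaffold proteins. Many cytosolic synthetase genes are also textbook targets of ATF4, the transcription factor that cells make when an amino acid runs short. Mitochondrial synthetases serve only the few proteins encoded by mitochondrial DNA, all of them parts of the respiratory chain, on which the beating heart depends. Inherited defects of several of them, among them AARS2 and YARS2, affect the heart or muscle.

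The libraries summed to between 2839589 and 2916986 normalized read counts, with no separation of the genotypes, and the sequencing depth before normalization was not used here. Mettl3 itself was lower in the library of every Mettl3 KO heart, 68 to 78 against 105 to 133 normalized read counts in WT (log2 fold change -0.67, SE 0.10, adjusted p = 1.84e-04 by limma). Of 8 cardiomyocyte markers 0 passed the limma test and 1 had an unadjusted p under 0.05, with sums of 82853 to 89445 in WT and 81860 to 91691 in Mettl3 KO. All 4 atrial markers passed the test and were higher in Mettl3 KO, with sums of 150, 141, 17 and 137 in WT replicates 1 to 4 and 146, 563, 564 and 911 in Mettl3 KO replicates 1 to 4. The atrial gene Bmp10 was at 0 in all WT libraries and in Mettl3 KO replicate 1. Of the fibroblast list 7 of 8 genes were higher (sums of 3648 to 4172 against 4711 to 5671), and of the endothelial list 1 was higher and 3 were lower (5376 to 5526 against 4924 to 5316). None of the 6 macrophage, 5 lymphocyte, 6 smooth muscle and pericyte or 5 blood genes passed the limma test at an adjusted p of 0.05, and 1, 1, 3 and 2 of them, in this order, had an unadjusted p under 0.05. Their sums overlapped between genotypes, and the lymphocyte sum reached at most 24. The share of atrial tissue in the samples was not recorded in the labels. In RNA of a whole tissue, fewer cells of a type and less RNA per cell cannot be told apart.

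Few synthetase genes passed the test at an adjusted p under 0.05. Of the 37 members, 1 passed the limma test, the mitochondrial methionyl-tRNA synthetase gene Mars2, which was higher in Mettl3 KO. That is 2.7% of members, beside 7.91% of all genes tested (4.72% higher and 3.19% lower), and beside 12.4% of 10569 protein-coding genes with a mean of at least 25, a range of levels that includes every member. The share of members passing was above that of all genes without limma's variance trend, with 1 member and 321 genes in all. It was also above with the atrial markers as a covariate, with 3 members and 913 genes in all. That covariate is the mean log2(value + 1) of the 4 atrial markers in each library, not their sum. At an unadjusted p under 0.05 stood 9 members, 24.3%, beside 20.6% of all genes tested. The median log2 fold change of the 37 genes was -0.05, from -0.25 for Vars and Rars2 to 0.45 for Pars2, with 12 positive and 25 negative values. Over all genes tested the median was -0.01, and 51.8% had a negative value. The 95% interval of the fold change lay within 0.5 log2 units of 0 for 35 of 37 members (the exceptions were Mars2 and Pars2). Each interval covers its own gene and is not adjusted for the number of genes.

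**Figure D1:**
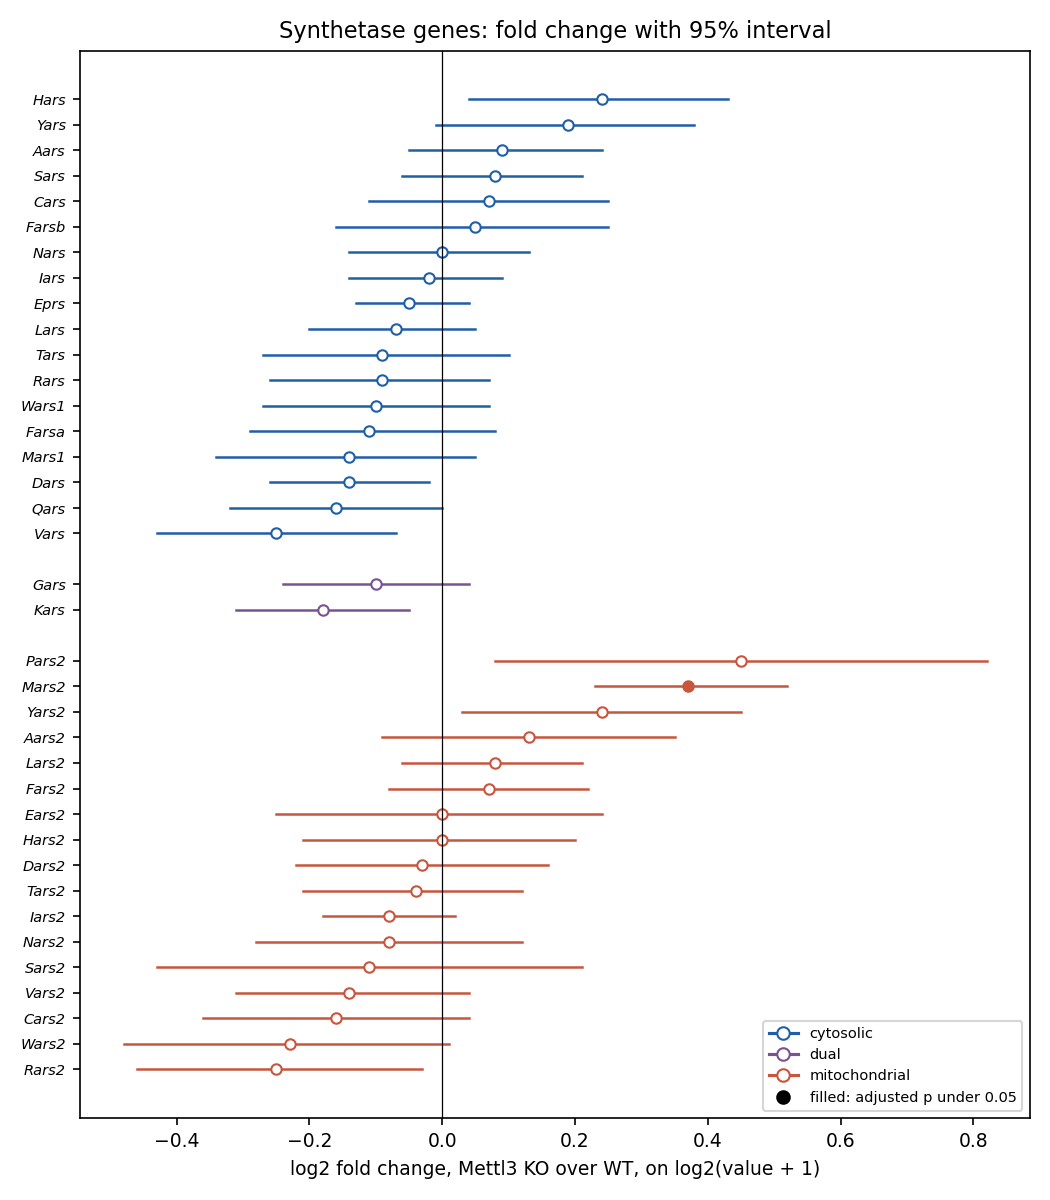
Each point is the log2 fold change of 1 synthetase gene (x axis, Mettl3 KO over WT, 4 hearts each), with its 95% interval as a line, sorted within cytosolic, dual and mitochondrial enzymes, and a filled point marks an adjusted p under 0.05. Mars2 at 0.37 is the only filled point, and Pars2 at 0.45 has the widest interval, from 0.08 to 0.82.

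The summed transcript level of the family was close in both genotypes. The 37 genes summed to 7367 to 7748 normalized read counts in WT and 7275 to 7521 in Mettl3 KO, or 0.259% to 0.273% and 0.253% to 0.260% of all values. The 18 cytosolic genes summed to 4305 to 4550 in WT and 4279 to 4443 in Mettl3 KO, and the 17 mitochondrial genes to 2501 to 2606 and 2482 to 2564. The ratio of the mitochondrial to the cytosolic sum was 0.571 ± 0.0107 (SD, n = 4) in WT and 0.582 ± 0.0106 (SD, n = 4) in Mettl3 KO, with overlapping libraries. The dual genes Gars and Kars together were the one sum without overlap, 560 to 592 in WT and 507 to 551 in Mettl3 KO.

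Of the 18 cytosolic members 0 passed the limma test at an adjusted p of 0.05, and 4 had an unadjusted p under 0.05. Their median log2 fold change was -0.06, and their smallest adjusted p was 0.0898. Of the 17 mitochondrial members 1 passed and 4 had an unadjusted p under 0.05, with a median of -0.03. The mitochondrial values reached further up, to 0.45 against 0.24 for the cytosolic ones, while both sets went down to -0.25. Values of all 4 libraries of one genotype lay beyond those of the other for 5 of 37 members, 13.5%, beside 11.5% of all genes tested and 17.3% of the protein-coding genes with a mean of at least 25. These were Mars2 and Yars2, higher in Mettl3 KO, and Vars, Kars and Iars2, lower.

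Mars2 charges the mitochondrial methionine tRNA, which both starts and extends every mitochondrially encoded protein. Its transcript stood at 155, 157, 146 and 153 normalized read counts in WT and at 196, 195, 208 and 193 in Mettl3 KO. The groups did not overlap, and every Mettl3 KO library was above every WT library. The mean rose from 153 ± 4.79 to 198 ± 6.78 (SD, n = 4 each), to 130% of WT, with a log2 fold change of 0.37 (SE 0.07, adjusted p = 0.00147 by limma) and a 95% interval of 16.9% to 43.2% above WT. Mettl3 KO replicate 1, the library with atrial markers at the level of WT, had 196, inside the range of the other Mettl3 KO libraries. With the mean log2 value of the atrial markers as a covariate the fold change was 0.33 and the limma adjusted p was 0.0953. This was the only one of 20 alternative settings in which Mars2 did not pass the test.

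Mars2 (ENSMUSG00000046994) lies on the plus strand of mm39 at chr1:55276336-55287629 and is the only member without an intron. Its single exon of 11294 bases holds 1758 bases of coding sequence, followed by 9473 bases after the last coding codon. Reads were counted over the whole exon, so more transcripts and more use of a long 3′ end cannot be told apart here. The study reported a shift to distal polyA sites, which lengthen the transcript, for a set of genes in Mettl3 KO hearts. Whether Mars2 is among them was not tested. GGACT is the 5-letter form most often methylated by METTL3, and the transcript strand holds 12 copies, 5 in the coding sequence and 7 after it. This is an ordinary number for its length, 1.06 per kb beside a median of 1.04 per kb over 10538 protein-coding genes with a mean of at least 25 (of the 10569, those matched in GENCODE vM21 by identifier). At least 1 copy is found in 92.9% of those transcripts, in all 270 of them that have 10000 bases or more, and in 33 of 37 members. The nearest copies on each side of the stop codon are shown because m6A is known to cluster there. In the order below they lie at -594, -28, 1457 and 1567 bases from the end of the coding sequence. Only the copy at -28 is thus close to the stop codon. They are taken from the GENCODE vM21 transcript (GRCm38, plus strand), written 5′ to 3′ with GGACT in capitals. Methylation was not measured in these libraries, and a copy is only a match of letters.
Mars2, chr1:55238393-55238417: ttaaattgctGGACTccgagctggc
Mars2, chr1:55238959-55238983: gaccaatctaGGACTcggctagtga
Mars2, chr1:55240444-55240468: gctttcctttGGACTccttatatca
Mars2, chr1:55240554-55240578: ggcagtctcgGGACTgtgtagtgat

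Mars1, the cytosolic methionyl-tRNA synthetase gene and a part of the multi-synthetase complex, did not pass the test. It stood at 183, 180, 213 and 166 normalized read counts in WT and at 200, 169, 164 and 141 in Mettl3 KO (log2 fold change -0.14, SE 0.10, adjusted p = 0.445 by limma). The groups overlapped, and with the atrial covariate the fold change turned to 0.21. The ratio of Mars2 to Mars1 within a library was 0.832 ± 0.102 (SD, n = 4) in WT and 1.19 ± 0.167 (SD, n = 4) in Mettl3 KO, and the lowest Mettl3 KO ratio, 0.980, was above the highest WT ratio, 0.922. Mars1 overlaps Ddit3, an ATF4 target on the other strand, by 68 bases, and reads were counted by strand.

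**Figure D2:**
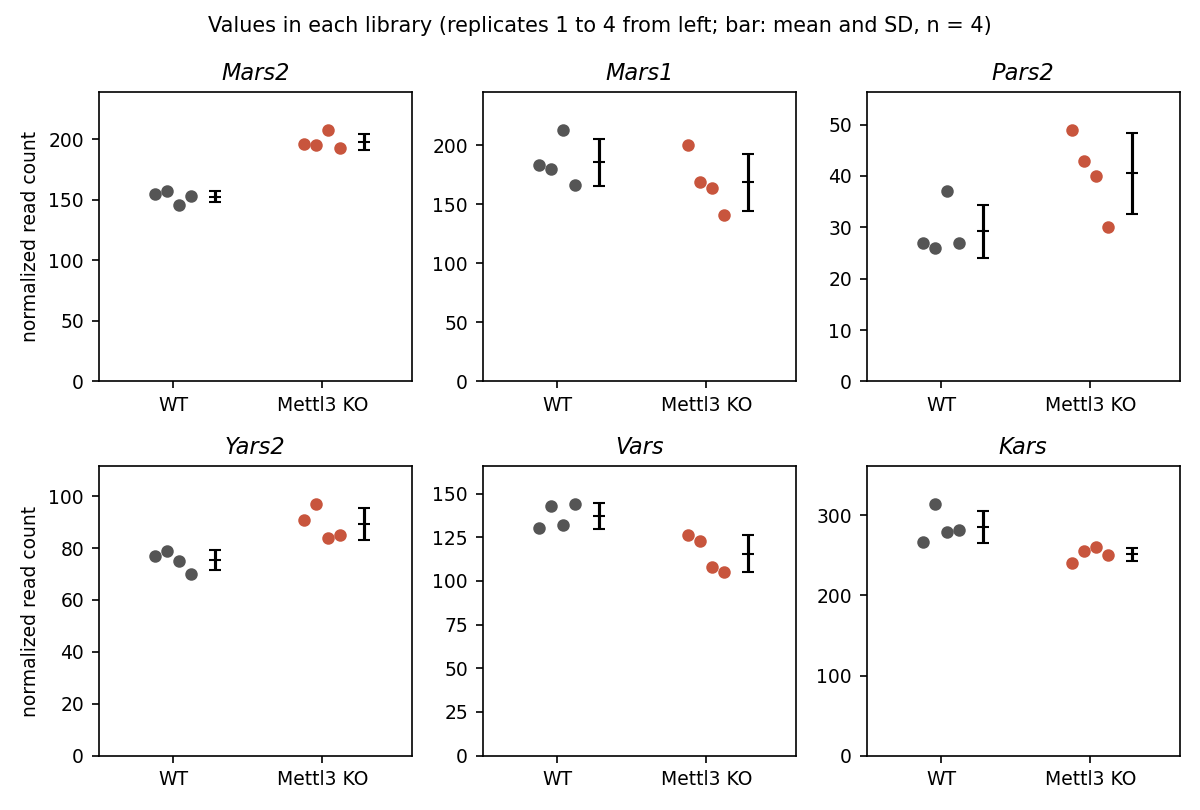
Each panel shows the normalized read count (y axis, from 0) of 1 gene in the 4 WT (grey) and 4 Mettl3 KO (red) libraries, with the mean and SD beside them. Mars2 and Yars2 were higher in every Mettl3 KO library than in any WT library, Vars and Kars were lower in every one, and Mars1 and Pars2 overlapped between genotypes.

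Pars2 and Yars2 also had positive fold changes without passing the test, as did the cytosolic Hars at 0.24 (adjusted p = 0.134 by limma). Pars2, the mitochondrial prolyl-tRNA synthetase gene and the member with the lowest level, stood at 27, 26, 37 and 27 normalized read counts in WT and at 49, 43, 40 and 30 in Mettl3 KO (log2 fold change 0.45, SE 0.18, adjusted p = 0.142 by limma). WT replicate 3 was above Mettl3 KO replicate 4, so that the groups overlapped. Yars2, the mitochondrial tyrosyl-tRNA synthetase gene, stood at 77, 79, 75 and 70 in WT and at 91, 97, 84 and 85 in Mettl3 KO, without overlap (log2 fold change 0.24, SE 0.10, adjusted p = 0.166 by limma). In each genotype Pars2 was highest in the library with the fewest atrial markers, and in Mettl3 KO it was lowest in the library with the most. Rars2, the mitochondrial arginyl-tRNA synthetase gene, had the opposite order, lowest in the library with the fewest atrial markers of each genotype, with 151, 141, 129 and 149 in WT against 96, 115, 133 and 140 in Mettl3 KO (log2 fold change -0.25, SE 0.10, adjusted p = 0.169 by limma). With the atrial markers as a covariate both genes passed the test, Pars2 at 0.94 (limma adjusted p = 0.0305) and Rars2 at -0.60 (limma adjusted p = 0.00629). This was the only one of 20 alternative settings in which either passed. Without the covariate, leaving out 1 library gave 0.35 to 0.58 for Pars2 and -0.32 to -0.14 for Rars2. All 4 atrial markers were themselves higher in Mettl3 KO, so the covariate is not separate from genotype.

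These genes differ in exon number. Mars2 has 1 exon, Pars2 has 2 and Yars2 has 5, in the annotated transcript with the longest coding sequence, while the median member has 16. The log2 fold changes of these 3 genes were 0.24 to 0.45 with a median of 0.37, and those of the other 34 members were -0.25 to 0.24 with a median of -0.08. Hars, with 13 exons, was at 0.24 like Yars2. The next genes in the order of exon number were Wars2 with 6 exons, at -0.23, and Fars2 with 7 exons, at 0.07. Across the 37 members, which share the same 8 libraries, the fold change had a Spearman rho of -0.32 with exon number (-0.26 without Mars2), 0.42 with the length of the longest exon (0.37 without Mars2) and 0.08 with transcript length. Over the whole table the shares of genes called also differed with exon number. Of the 10538 matched protein-coding genes with a mean of at least 25, 21.4% of 159 with 1 exon, 13.7% of 2373 with 2 to 5 exons and 5.96% of 8006 with more than 5 exons passed the test as higher in Mettl3 KO, and 1.89%, 2.82% and 5.05% passed as lower. The split by exon number was made after the values had been seen, and is a description.

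**Figure D3:**
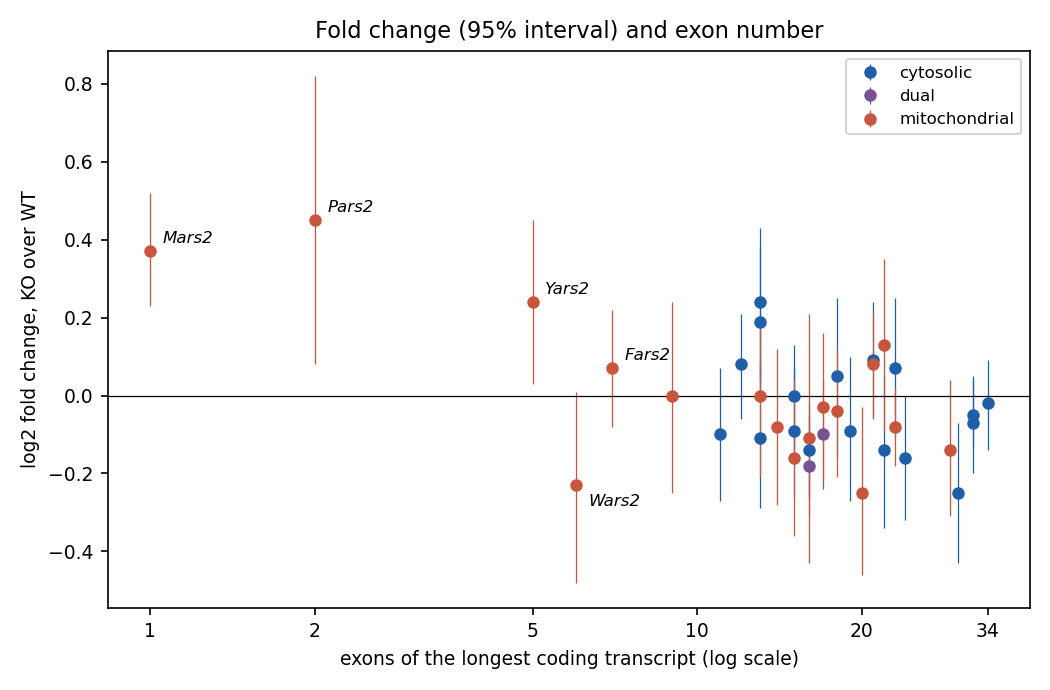
Each point is 1 synthetase gene, with its exon number on a log scale (x axis) and its log2 fold change with the 95% interval (y axis, Mettl3 KO over WT), coloured by compartment. The 3 genes with 5 exons or fewer lie at 0.24 to 0.45, while the other 34 scatter between -0.25 and 0.24.

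The genes nearest the threshold on the lower side were Vars and Kars. Vars, the cytosolic valyl-tRNA synthetase gene (chr17:35219963-35235298, plus strand), stood at 130, 143, 132 and 144 normalized read counts in WT and at 126, 123, 108 and 105 in Mettl3 KO. The groups did not overlap, and the log2 fold change was -0.25 (SE 0.09, adjusted p = 0.0898 by limma). Kars (chr8:112720075-112737955, minus strand) makes both the cytosolic and the mitochondrial lysyl-tRNA synthetase from one gene by alternative splicing. It stood at 267, 314, 279 and 281 in WT and at 241, 255, 260 and 250 in Mettl3 KO, without overlap, at a log2 fold change of -0.18 (SE 0.06, adjusted p = 0.0975 by limma). Neither passed the test under any of the 20 alternative settings. Gars, the other dual gene, overlapped between genotypes at -0.10 (limma adjusted p = 0.464).

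All 8 members of the multi-synthetase complex (Dars, Eprs, Iars, Kars, Lars, Mars1, Qars and Rars) had negative fold changes, from -0.18 for Kars to -0.02 for Iars with a median of -0.12, though with the atrial covariate Mars1 was at 0.21 (adjusted p = 0.371) and without Mettl3 KO replicate 1 Iars was at 0.00. None passed the limma test at an adjusted p of 0.05, and 3 of them (Dars, Kars and Qars) had an unadjusted p under 0.05, as did 20.6% of all genes tested. Eprs, the fused glutamyl- and prolyl-tRNA synthetase and the most abundant member, stood at 942, 912, 930 and 943 normalized read counts in WT and at 929, 876, 894 and 912 in Mettl3 KO (log2 fold change -0.05, SE 0.04, adjusted p = 0.597 by limma). Dars, for aspartate, stood at 363, 361, 374 and 386 in WT and at 331, 369, 315 and 332 in Mettl3 KO, with 1 Mettl3 KO library inside the WT range (log2 fold change -0.14, SE 0.06, adjusted p = 0.166 by limma). The 11 cytosolic members outside the complex had a median of 0.05, from -0.25 to 0.24, with 6 positive values. The scaffold genes Aimp1, Aimp2 and Eef1e1 had log2 fold changes of 0.15, 0.20 and -0.04, with 0 past the limma test and 0 at an unadjusted p under 0.05.

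In WT hearts the cytosolic enzymes had more transcript per length than the mitochondrial ones for most, not all, amino acids. On the scale of normalized read counts per kb of the annotated transcript, the median level was 70.5 for cytosolic members (33.2 to 190), 126 for the dual pair (122 and 130) and 33.1 for mitochondrial members (9.60 to 105). Eprs at 190, Dars at 171 and Kars at 130 had the highest levels. The lowest were Pars2 at 9.60, Mars2 at 13.5 and Sars2, for mitochondrial serine, at 21.5. Without division by length Mars2, with its exon of 11294 bases, had 153 normalized read counts, more than the 75.2 of Yars2. Sars2 stood at 42, 39, 36 and 44 in WT and at 44, 32, 40 and 34 in Mettl3 KO (log2 fold change -0.11, limma adjusted p = 0.779).

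Of 16 amino acids with a single cytosolic and a single mitochondrial member, counting Eprs for both glutamate and proline, 13 had the higher per-kb level for the cytosolic enzyme in WT, from 19.8 times the mitochondrial level for proline to 1.02 times for tyrosine. The tyrosine and arginine pairs overlapped in range over the WT libraries. The exceptions were threonine with Tars2 at 82.6 against Tars at 34.3, cysteine with Cars2 at 75.2 against Cars at 39.3, and isoleucine with Iars2 at 105 against Iars at 87.9. Phenylalanine, whose cytosolic enzyme has a pair of subunits and so is not among the 16, was a further exception, with the mitochondrial Fars2 at 94.1 (84.7 to 101) against Farsa at 59.7 (55.9 to 63) and Farsb at 59.9 (53 to 67.8). Threonine rests on leaving out Tarsl2, which the rule does not match and whose level of 83.5 per kb was close to that of Tars2. Tarsl2 stood at 220, 308, 239 and 299 normalized read counts in WT and 259, 279, 280 and 290 in Mettl3 KO (log2 fold change 0.07, limma adjusted p = 0.737). Against the genotype, the mitochondrial fold change was above the cytosolic one in 9 of 16 pairs. Within a library, the ratio of the mitochondrial to the cytosolic value separated the genotypes for 2 of 16 pairs, methionine (above) and leucine, where Lars2 over Lars was 0.642 ± 0.0312 (SD, n = 4) in WT and 0.714 ± 0.0498 (SD, n = 4) in Mettl3 KO. For single genes, the genotypes were separate in 11.5% of all genes tested and 17.3% of protein-coding genes with a mean of at least 25. The 2 pairs are given as a description.

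**Figure D4:**
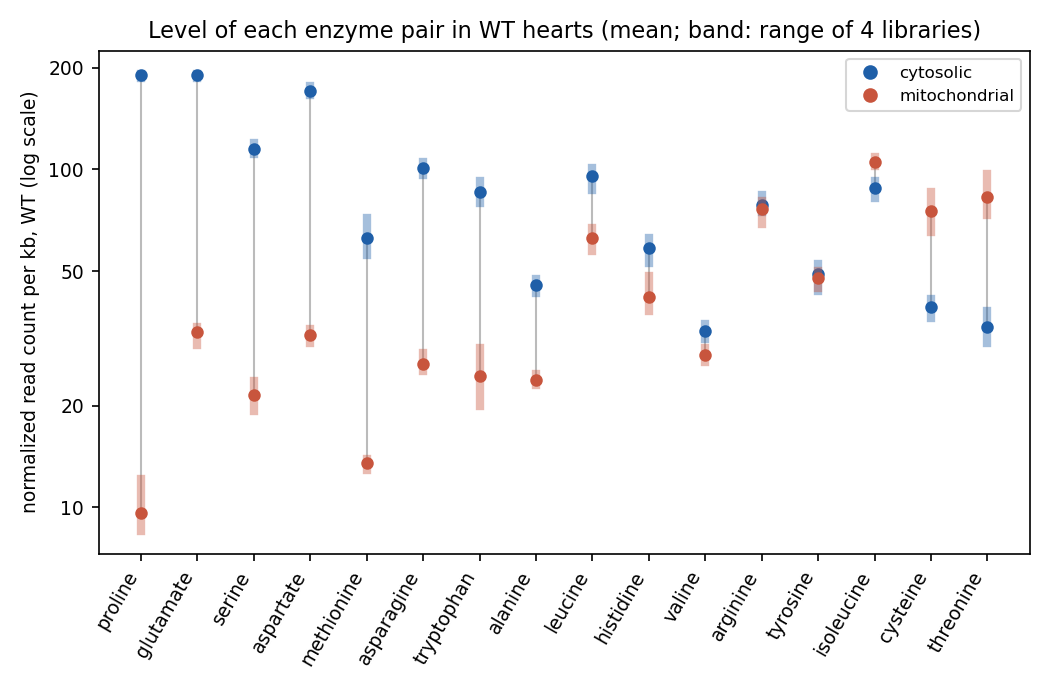
For each of 16 amino acids (x axis), the points give the mean normalized read count per kb of the cytosolic (blue) and mitochondrial (red) enzyme in WT hearts on a log scale (y axis), with a band for the range of the 4 WT libraries. The cytosolic point is higher for 13 amino acids, and Iars2, Cars2 and Tars2 stand above the cytosolic enzyme shown, while phenylalanine, where Fars2 is above both cytosolic subunits, and Tarsl2 are not plotted.

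Genes that work beside the synthetases were examined in lists. Of 24 genes for complex scaffolds, editing of mischarged tRNA, other routes of mitochondrial charging, selenocysteine tRNA, tRNA ends and delivery of charged tRNA to the ribosome, 2 were higher in Mettl3 KO and 0 lower, 8.33% beside 7.91% of all genes tested, with a median log2 fold change of 0.09. Elac1, a tRNA 3′ end nuclease, stood at 105, 86, 105 and 89 normalized read counts in WT and at 122, 128, 130 and 120 in Mettl3 KO, without overlap (log2 fold change 0.38, SE 0.09, adjusted p = 0.0133 by limma). Eef1a1, the elongation factor that brings charged tRNA to the ribosome, stood at 322, 334, 325 and 376 in WT and at 401, 382, 397 and 399 in Mettl3 KO (log2 fold change 0.22, SE 0.06, adjusted p = 0.0214 by limma). Eef1a1 has near-identical copies in the genome, so that its values are uncertain where multi-mapping reads were removed. Elac1 failed the test in 4 of 20 alternative settings and Eef1a1 in 7. With the atrial markers as a covariate the limma adjusted p was 0.103 for Elac1 and 0.226 for Eef1a1. Without limma's variance trend it was 0.0893 for Elac1 and 0.173 for Eef1a1. Leaving out WT replicate 2 or Mettl3 KO replicate 3 took the adjusted p of Elac1 to 0.0571 and 0.0563. For Eef1a1 leaving out WT replicate 1, 2 or 3 gave 0.0803, 0.064 and 0.0615, and leaving out Mettl3 KO replicate 3 or 4 gave 0.0688 and 0.0622. Eef1a2, the form of heart and skeletal muscle, was at 0.07 (limma adjusted p = 0.423).

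Uncharged tRNA is sensed by the kinase GCN2 (Eif2ak4) with GCN1, which leads to translation of ATF4 and to transcription of its targets. Of 5 genes for the eIF2alpha kinases and GCN1, 0 passed the limma test at an adjusted p of 0.05, and 1, Gcn1, had an unadjusted p under 0.05 (log2 fold change -0.13, limma adjusted p = 0.173). Of 25 tested genes of the ATF4 amino acid response, 2 were higher and 1 was lower, 12% beside 7.91% of all genes tested, with a median of 0.20, 18 positive and 7 negative values. At an unadjusted p under 0.05 stood 10 of the 25, 40%, beside 20.6% of all genes tested. Fgf21, the remaining gene of this list, was too low to test. Mthfd2, the mitochondrial folate enzyme that helps make one-carbon units, rose most, from 14, 22, 11 and 13 normalized read counts in WT to 104, 51, 69 and 29 in Mettl3 KO, without overlap (log2 fold change 1.91, SE 0.28, adjusted p = 1.07e-04 by limma). Nupr1, a small stress-induced nuclear protein, was higher with overlap of the groups, at 0.79 (SE 0.24, adjusted p = 0.0483 by limma), and passed in 7 of 20 alternative settings. Leaving out WT replicate 1, 2 or 3 or Mettl3 KO replicate 1, 3 or 4 each ended the call of Nupr1, with adjusted p-values of 0.138, 0.0757, 0.117, 0.0611, 0.144 and 0.195. Nupr1 was at 0.50 (limma adjusted p = 0.556) with the atrial markers as a covariate. Slc7a1, an arginine and lysine transporter, fell by 0.45 on the log2 scale (SE 0.07, adjusted p = 2.11e-04 by limma), from 394, 383, 466 and 362 to 310, 299, 289 and 270. With the atrial markers as a covariate Slc7a1 was at -0.24 (adjusted p = 0.165). Without limma's variance trend the adjusted p was 0.0634 for Mthfd2 and 0.0696 for Slc7a1.

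Other genes of the response lay short of the threshold. Asns, the asparagine synthetase and a standard ATF4 target, stood at 13, 13, 10 and 12 normalized read counts in WT and at 24, 18, 21 and 17 in Mettl3 KO, without overlap (log2 fold change 0.69, limma adjusted p = 0.075). Atf4 was at 0.19 (limma adjusted p = 0.188) and Cebpg, which pairs with ATF4 on DNA, at 0.23 (limma adjusted p = 0.0528). On the lower side Psph, the last enzyme of serine synthesis, was at -0.39 without overlap of the groups (limma adjusted p = 0.328). Mettl3 KO replicate 1 had the highest value of all 8 libraries for 11 of the 25 genes, among them Atf4, Atf5, Asns and Mthfd2. That library also had the largest sum over all genes, 2916986 normalized read counts. The share of all genes with their highest value in it was not counted, so the 11 are only a description. The synthetase genes did not single out this library, which was the highest for 8 of 37, beside 7 each for WT replicates 2 and 4. Of the 20 cytosolic and dual genes it was the highest for 5 (Aars, Cars, Gars, Nars and Yars), and WT replicate 4 for 6.

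ATF4 acts with C/EBP proteins at the response element TGATGNAA. This 8-letter motif was looked for on both strands of the RefSeq promoter windows (GRCm38.p6, from 250 bases before to 50 bases after the gene start). A window was listed for 27 of the 37 members, and 5 of these held a match, 18.5%, beside 2.87% of 11286 tested protein-coding genes and 4.51% of all 27025 listed windows. The matches were in 4 of 11 cytosolic genes (Aars, Iars, Tars and Yars), in 1 of 2 dual genes (Gars) and in 0 of 14 mitochondrial genes. Binding of ATF4 was not measured in these libraries, and a match is only a match of letters. The match nearest each gene start is shown, at -30 to 9 bases from that start. Each is in a window of 30 bases on the strand of its gene, 5′ to 3′, with the match in capitals. All but that of Yars read on the opposite strand, where TGATGNAA appears as its reverse complement.
Aars, chr8:111033840-111033869, plus strand: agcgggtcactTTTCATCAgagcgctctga
Gars, chr6:55037960-55037989, plus strand: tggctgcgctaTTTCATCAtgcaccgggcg
Iars, chr13:49682126-49682155, plus strand: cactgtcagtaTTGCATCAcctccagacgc
Tars, chr15:11399655-11399684, minus strand: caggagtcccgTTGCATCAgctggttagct
Yars, chr4:129189895-129189924, plus strand: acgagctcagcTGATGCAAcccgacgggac

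None of the 5 genes with a match passed the limma test at an adjusted p of 0.05, and 0 of them had an unadjusted p under 0.05. Their log2 fold changes were 0.09 for Aars, -0.10 for Gars, -0.02 for Iars, -0.09 for Tars and 0.19 for Yars. Aars, for alanine, stood at 247, 273, 259 and 269 normalized read counts in WT and at 317, 255, 281 and 267 in Mettl3 KO. Yars, for tyrosine, stood at 138, 153, 152 and 127 in WT and at 194, 163, 142 and 153 in Mettl3 KO. In both genes Mettl3 KO replicate 1 was well above the other libraries and the remaining ones overlapped with WT, and the same library was the highest for Gars, at 310, against 309 in the highest WT library. Iars and Tars had their highest value in a WT library. With the atrial markers as a covariate, Yars was at 0.45 (limma adjusted p = 0.0476), the only one of 20 alternative settings in which it passed.

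**Figure D5:**
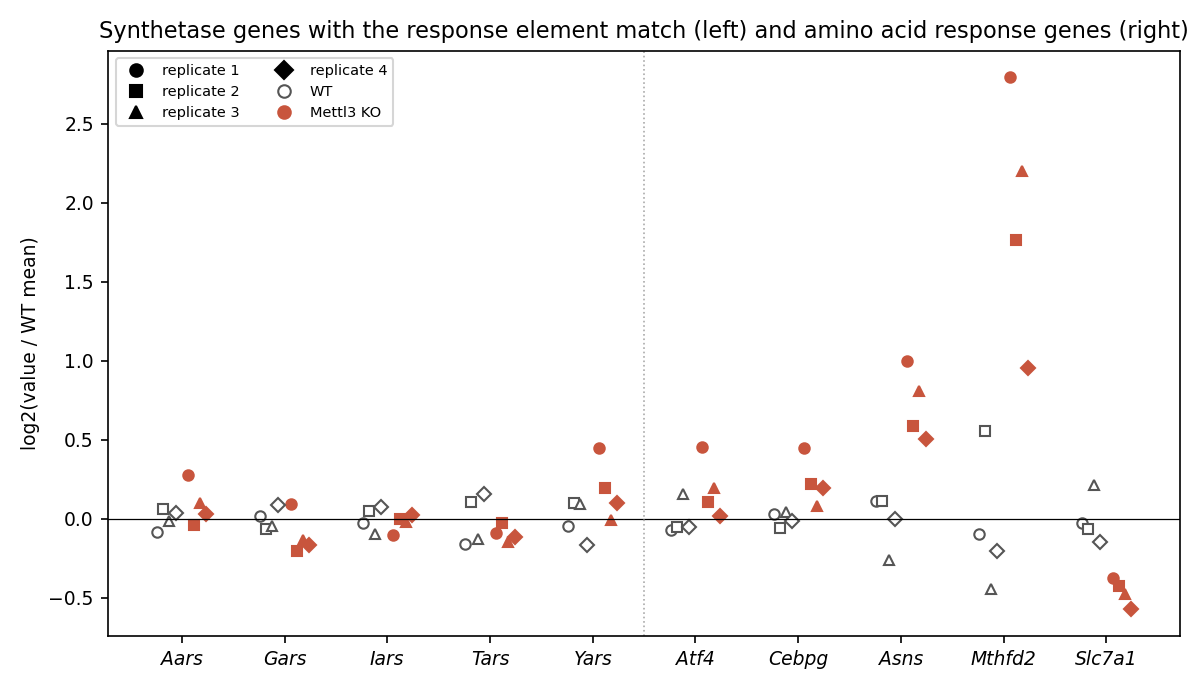
For 5 synthetase genes with the response element match and 5 genes of the amino acid response (x axis), each symbol is 1 library's value as log2 of its ratio to the WT mean (y axis), open for WT and filled for Mettl3 KO, with a shape for each replicate number. Mthfd2 and Asns are higher and Slc7a1 is lower in every Mettl3 KO library, while the synthetase genes overlap with WT and Mettl3 KO replicate 1 is the highest library for Aars, Gars and Yars.

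The spread of the members among hearts of one genotype was small beside their levels. The coefficient of variation of a member over the 4 libraries had a median of 5.66% in WT (1.55% to 17.7%) and of 8.34% in Mettl3 KO (1.93% to 19.6%). The enzymes fall into a pair of structural classes, which differ in the fold of the catalytic domain. Of 19 class I members 1 passed the test and 5 had an unadjusted p under 0.05, with a median log2 fold change of -0.08. Of 18 class II members 0 passed and 4 had an unadjusted p under 0.05, with a median of -0.02. Over all genes tested, 7.91% passed and 20.6% had an unadjusted p under 0.05. Hars and Hars2, the histidyl-tRNA synthetase genes of the cytosol and the mitochondrion, overlap head to head by 198 bases on opposite strands, and were counted by strand. Hars was at 111, 125, 105 and 124 normalized read counts in WT and at 124, 151, 127 and 147 in Mettl3 KO (log2 fold change 0.24, SE 0.09, adjusted p = 0.134 by limma), and Hars2 was at -0.00 (limma adjusted p = 1). The table's own description of Hars2 names another enzyme, D-aminoacyl-tRNA deacylase 1, and the gene was taken by its symbol and identifier, so that its values and the histidine pair carry this doubt.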

How the data were processed

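Stranded libraries of total RNA from 8 mouse hearts were read from a single end. As the methods and the submitters' processing notes have it, the authors trimmed reads with Trimmomatic 0.39, aligned them to mm39 with STAR 2.7.11a, removed duplicates with Picard 3.1.1 together with multi-mapping, ribosomal and mitochondrial reads, counted exonic reads by strand with featureCounts 2.0.4 and normalized with DESeq2 1.36.0. The deposited values are a score, normalized counts rounded to whole numbers, so no count model was used. Raw depth was not used here, and precision rests on the spread between libraries. Whether replicates are separate litters or preparations is not stated in the labels, so p-values measure only the spread between these libraries.

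Values were tested as log2(value + 1) with limma 3.58.1 (trend, R 4.3.3), genotype as the only term, two-sided, on genes with a mean of at least 1 (2732 genes left out), with Benjamini-Hochberg adjustment over 20313 genes and a threshold of 0.05. The fit was tested on simulated data. Exon numbers and lengths come from GENCODE vM21 (GRCm38), matched by gene identifier for all 37 members. The members and lists were chosen with earlier results of these data known. Named genes were members past the test with their same-amino-acid partner, members with an adjusted p of 0.05 to 0.1, the 3 highest and 3 lowest per kb, and list genes past the test. Yars2, Rars2, Yars, Asns and others named beside them were chosen after their values were seen. The alternatives, 20 in all, changed the pseudocount, filter, scaling, limma's variance model, the replicate block, an atrial covariate or left out 1 library.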

Additional observations from a re-analysis of the deposited data

Results flagged for a closer look

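In the 74 sets of 4 libraries (37 genes in each genotype), 3 had 1 library far from the others, where about 3.7 would be found by chance at this threshold. For Pars2 in WT the gap of replicate 3, at 37 normalized read counts against 26 to 27, was 0.909 of the whole range. For Iars2 in Mettl3 KO the gap of replicate 4, at 521 against 551 to 556, was 0.857 of the range. For Ears2 in WT the gap of replicate 1, at 62 against 69 to 70, was 0.875 of the range.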

How the results depend on the processing

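Under the 20 alternatives, Mars2 was the only synthetase gene past the test in 19, with adjusted p-values from 0.00111 upward. With the atrial markers as a covariate it was lost (0.33, adjusted p = 0.0953) and 3 synthetase genes passed, 1 cytosolic (Yars) and 2 mitochondrial (Pars2, Rars2), and Mars1 turned from -0.14 to 0.21 (adjusted p = 0.371). The cause was not tested. Over all genes, 321 passed without limma's trend and 913 with the atrial covariate, against 1607. Leaving out 1 library gave 1005 (without Mettl3 KO replicate 3) to 1593 genes, and 1 synthetase gene each time. The medians ranged from -0.08 to 0.01 for cytosolic and from -0.06 to 0.01 for mitochondrial genes. Same-numbered libraries did not deviate together (correlations from -0.105 to 0.112 over 9313 genes), so the numbers were not taken as pairs. With the replicate block 1346 genes passed, among them 1 synthetase gene, Mars2 (adjusted p = 0.00705). Of 340 values of 17 named genes, 308 kept direction and call, 28 lost the call, 3 gained it and 1 reversed. Genes at low values, such as Pars2 at 26 to 49, have the widest intervals.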
